A study of Mus musculus with 21 samples.

Results

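Left ventricles of mice given the PDE5A inhibitor sildenafil during pressure overload were compared with left ventricles under overload alone. The members were taken from the sample labels: the 5 libraries labelled TAC+PDE5A-I and the 5 labelled TAC, 10 of the 21 libraries of the study. All mice were C57BL/6J. TAC, transverse aortic constriction, is an operation that narrows the aorta, so that the left ventricle pumps against a raised pressure. The TAC mice had the operation and no drug. The sildenafil mice had the same operation and then 4 weeks of drug, beginning 1 week after surgery. The other groups serve only as context: 5 sham-operated mice without drug, and 6 mice with TAC and the PDE9A inhibitor PF-04449613 on the same schedule. Every library carries its own ear tag, so the spread between libraries is a spread between animals. Drug doses, vehicle, age and sex were not stated in these sources. The time from surgery to harvest is not given here for the TAC mice.

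Cyclic GMP is a second messenger made in the heart by membrane receptors for natriuretic peptides and by a soluble guanylate cyclase that senses nitric oxide. It acts largely through cyclic GMP-dependent protein kinase, which in heart muscle is known to oppose calcineurin signalling and hypertrophic growth. PDE5A degrades cyclic GMP, and sildenafil blocks its catalytic site, so the drug acts on the enzyme and not on its transcript.

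Library totals were 22.7 to 30.5 M expected counts in TAC and 26.7 to 36.5 M with sildenafil. The sildenafil libraries were the deeper (mean 34.1 against 28 M, two-sided exact permutation p = 0.0397, adjusted over 2 library measures 0.0794), and the part of depth in the results was not tested. Levels are therefore given as CPM, the count of a gene per M counts of its library after TMM scaling. All 13 cardiomyocyte markers were measured, while none of the 6 lung markers reached the level needed for testing. The animals of each group differed widely among themselves. On the first principal component of the 10 libraries, which held 39.1% of the variance, TAC ran from -40.9 (library 4) to 33.7 (library 2). Sildenafil ran from -22.1 (library 4) to 27.4 (library 2), inside the TAC range.

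Few transcripts differed between sildenafil and untreated overload beyond this spread. Of 14135 genes tested with edgeR's quasi-likelihood test, 2 rose (0.0141%) and 0 fell (0%) at an adjusted p under 0.05. At an unadjusted p under 0.05, 363 genes were higher (2.57%) and 368 lower (2.6%), 731 in all, where 5% of the tests is 706.75. The groups did not overlap for 55 genes on the higher side (0.389%) and 85 on the lower (0.601%). With group labels dealt at random, 5 against 5 libraries would lack overlap, on either side, with a probability of 0.00794 per gene. Many genes named below were picked by low p in these same libraries, so their lack of overlap is no separate evidence. Of all genes, 48.9% had a fold change above 0. For the median gene the 95% interval reached 0.24 to each side on the log2 scale, which is the scale of every difference given here. The count of risen genes depended on the tool: DESeq2 called 6 higher and 2 lower, limma-voom called 0 either way (1498 at an unadjusted p under 0.05), and edgeR on the 10 libraries alone called 0 (795). With the same model 25.2% of genes were called for TAC against sham and 14.6% for sildenafil against sham, comparisons that share libraries with this one.

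St8sia1 was the risen gene described here. It encodes GD3 synthase, a Golgi sialyltransferase that converts ganglioside GM3 to GD3 (ENSMUSG00000030283.7, protein-coding, minus strand of chromosome 6, 142821545 to 142964452 in GRCm38). The 250 bases before its start (chr6:142964453-142964702, minus strand, RefSeq, GRCm38.p6) are shown because St8sia1 was called, with the letters GGGCGG of a GC box in capitals.
St8sia1 promoter: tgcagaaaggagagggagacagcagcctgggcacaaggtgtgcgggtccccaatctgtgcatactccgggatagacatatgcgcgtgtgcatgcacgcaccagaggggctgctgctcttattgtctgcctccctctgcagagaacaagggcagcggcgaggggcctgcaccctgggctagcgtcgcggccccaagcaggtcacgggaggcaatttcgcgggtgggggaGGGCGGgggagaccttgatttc
The window was 63.6% G and C and held 1 such match over both strands (GGGCGG or CCGCCC), letters that 32.7% of 32851 mouse promoter windows hold. The cyclic AMP response element TGACGTCA (1.55% of windows), its shorter form TGACG (17.8%), TATAAA (12.4%) and the NFAT core GGAAA (55.6%) had no match on either strand.

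In TAC libraries 1 to 5 the St8sia1 level was 1.17, 0.539, 0.803, 0.46 and 0.393 CPM. With sildenafil it was 1.24, 1.88, 3.94, 4.74 and 4.05 CPM. The groups did not overlap, but sildenafil library 1 lay just above TAC library 1, and the highest levels were in sildenafil libraries 3 to 5. In unscaled counts these were 12 to 34 reads in TAC and 45 to 175 with sildenafil. Means were 0.672 ± 0.318 CPM under overload alone and 3.17 ± 1.52 CPM with the drug (SD, n = 5 each). The log2 fold change was 2.22 with a 95% interval of 1.47 to 2.98 (SE 0.36, edgeR adjusted p = 0.0337). In ventricle homogenate, a change in the number of cells of a type and a change in RNA per cell cannot be told apart. Sham hearts averaged 0.494 CPM, and TAC differed from sham by 0.45 (adjusted p = 0.416). The PDE9A inhibitor group averaged 0.973 CPM, and sildenafil lay above it by 1.69 (1.00 to 2.37, adjusted p = 0.124).

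The St8sia1 call depended on the setting. The adjusted p was 2.35e-05 with DESeq2, 0.23 with limma-voom and 0.834 when the spread came from the 10 libraries alone. With a replicate block it was 0.162. Without the 2 TAC libraries whose ear tags are in the 100s (no sildenafil animal has such a tag) it was 0.232. Leaving out 1 library ended the call for TAC 2 (0.181), TAC 3 (0.114), TAC 4 (0.145), TAC 5 (0.136), sildenafil 3 (0.0979), sildenafil 4 (0.108) and sildenafil 5 (0.145). The log2 fold change of St8sia1 was 1.76 to 2.52 over all settings run.

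Among the 25 tested genes of ganglioside synthesis and breakdown St8sia1 alone was called. Their median difference was -0.08 [-0.09 to -0.04], where brackets after a list median give its range when 1 library at a time was left out, with 8 of 25 above 0 (5 of 25 without TAC library 5), beside a median of -0.003 and 48.9% above 0 over all genes. Ugcg, which makes the glucosylceramide that gangliosides are built on, stood at 27.7, 33.9, 27.7, 35.8 and 25.1 CPM in TAC and at 26.9, 25, 23, 28.3 and 25.4 CPM with sildenafil. The ranges overlapped, with TAC libraries 2 and 4 the highest (log2 -0.22, -0.41 to -0.03, adjusted p = 0.947). B4galt5, which adds the next galactose, was at -0.36 (-0.76 to 0.03).

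**Figure D1:**
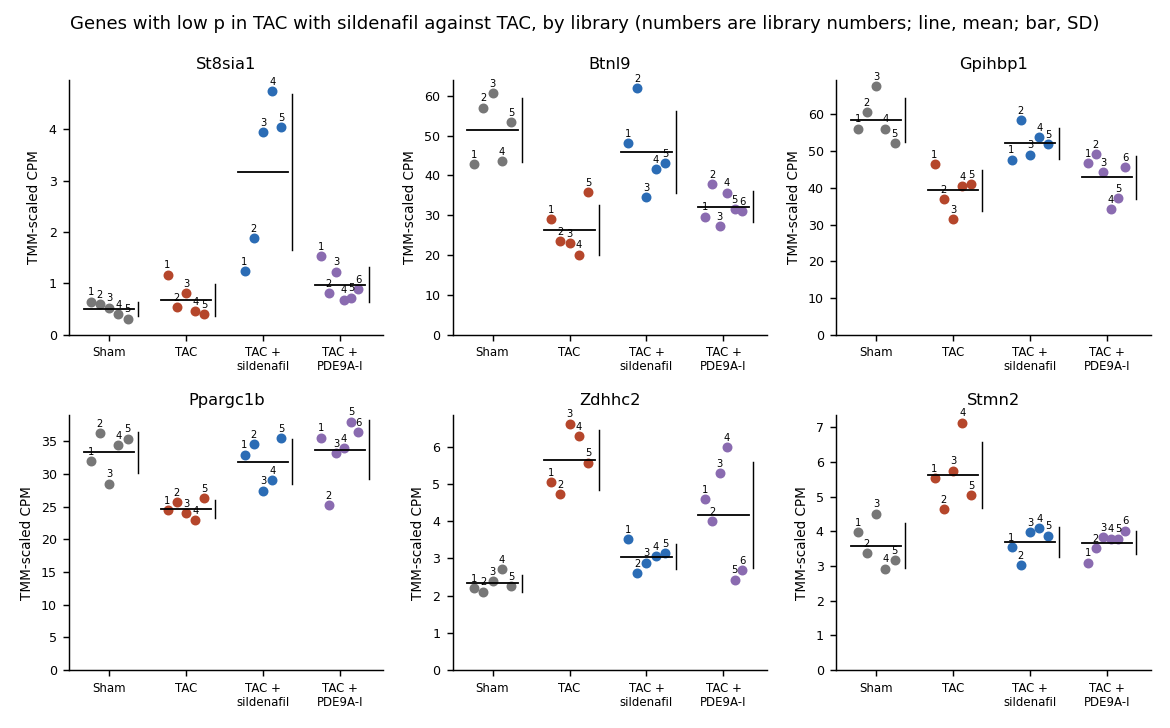
Levels of 6 genes in each library, in TMM-scaled CPM on axes that start at 0, for sham (5), TAC (5), TAC with sildenafil (5) and TAC with the PDE9A inhibitor (6). Points are animals, numbered as in the text, lines are means and bars SDs; St8sia1 with sildenafil spans 1.24 to 4.74 CPM and stands above TAC at 0.393 to 1.17 CPM.

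After St8sia1, the reported genes with the lowest p on the higher side had adjusted p of 0.226 or more. Btnl9, a butyrophilin-like membrane protein, was at 29.1, 23.5, 22.9, 20.1 and 35.8 CPM in TAC and at 48.1, 61.9, 34.5, 41.6 and 43.1 CPM with sildenafil. TAC library 5 reached into the sildenafil range, above sildenafil library 3, and the other TAC libraries lay below it. The log2 difference was 0.80 (0.47 to 1.13, adjusted p = 0.226), and DESeq2 called it (adjusted p = 0.00241). Sham hearts averaged 51.5 CPM. Btnl9 fell in TAC against sham by 0.97 on the log2 scale (adjusted p = 0.00202), a comparison that shares the same TAC libraries with opposite sign, so it is no independent evidence of a change toward sham. The same holds for every value against sham given beside one against TAC.

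Gpihbp1, the protein that carries lipoprotein lipase to the capillary lumen, had levels of 46.5, 36.9, 31.4, 40.5 and 41 CPM in TAC. With sildenafil the levels were 47.7, 58.4, 49, 53.9 and 51.9 CPM. The groups did not overlap, though TAC library 1 lay close to sildenafil library 1. The log2 difference was 0.41 (0.19 to 0.63, adjusted p = 0.785), and the sham mean was 58.5 CPM.

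Myrfl, a relative of the myelin regulatory factor, was at 1.41, 1.62, 0.61, 0.788 and 1.47 CPM in TAC and at 3.66, 6.51, 3.72, 2.03 and 2.58 CPM with sildenafil (log2 1.66, 0.97 to 2.35). Cuzd1, a secretory-granule membrane protein, was at 0.928, 0.898, 1.48, 1.31 and 1.21 CPM and at 1.87, 3.72, 3.5, 2.82 and 2.33 CPM (log2 1.28, 0.68 to 1.88). Neither overlapped between the groups, and sildenafil library 2 was the highest for both. DESeq2 called Myrfl and Cuzd1 (adjusted p = 0.00241 and 0.0228), and edgeR did not (0.226 and 0.428). Ppp2r3d, a regulatory subunit of protein phosphatase 2A, was at 0.42 (0.21 to 0.62) and the zinc finger gene Zfp770 at 0.27 (0.12 to 0.42), both without overlap. D8Ertd82e (0.68) and Vwa3a (0.71) overlapped.

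On the lower side the leading gene was Zdhhc2, a palmitoyltransferase that attaches lipid to membrane proteins. Its levels were 5.05, 4.72, 6.61, 6.27 and 5.56 CPM in TAC and 3.52, 2.6, 2.88, 3.06 and 3.15 CPM with sildenafil. Every sildenafil library lay below every TAC library. The log2 difference was -0.89 (-1.29 to -0.50, adjusted p = 0.31), and DESeq2 called it (0.0125). Zdhhc2 rose in TAC against sham by 1.28 (adjusted p = 0.00186), and sildenafil against sham was 0.38 (adjusted p = 0.176).

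Stmn2, a stathmin that destabilises microtubules and is best known from neurons, was at 5.53, 4.63, 5.75, 7.13 and 5.04 CPM in TAC. With sildenafil it was at 3.55, 3.02, 3.98, 4.09 and 3.88 CPM, again with no overlap. The log2 difference was -0.60 (-0.88 to -0.33, adjusted p = 0.33), and DESeq2 called it (0.0187). Against the PDE9A inhibitor group Stmn2 stood at 0.01 (-0.25 to 0.28).

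Smaller differences with narrow intervals were seen in more abundant genes. Vti1b, a SNARE protein of endosome fusion, was at 68.6, 75.6, 66.9, 63.9 and 72.3 CPM in TAC and at 59.2, 60.1, 58.4, 62.8 and 61.2 CPM with sildenafil (log2 -0.20, -0.31 to -0.09). G3bp2, a stress-granule protein, was at 89.7 to 97.4 and 81 to 85.6 CPM (-0.18, -0.28 to -0.08). Neither overlapped between the groups, and both had an adjusted p of 0.785. Vti1b fell in sildenafil against sham by 0.20 (adjusted p = 0.0212), whereas TAC stood at 0.01 from sham. Hgsnat, a lysosomal acetyltransferase of heparan sulfate breakdown, was at -0.19 (-0.31 to -0.08, adjusted p = 0.851), and its groups overlapped. Camk2g, a calcium/calmodulin-dependent kinase, was at -0.19 (-0.31 to -0.08) and Zfp934 at -0.50 (-0.78 to -0.21), both without overlap. For Zfp934, however, TAC library 2 (5.390 CPM) and sildenafil library 1 (5.387 CPM) were almost level. The Golgi membrane protein Golm1 (-0.38), the DNA polymerase zeta subunit Mad2l2 (-0.34) and the potassium channel Kcna4 (-0.89) overlapped.

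The cyclic GMP pathway was compared in the order of signalling, and edgeR called no member of its 4 lists (2 at an unadjusted p under 0.05). Of the peptide ligands and their processing enzymes, 2 of 5 were above 0, and 4 of 5 without TAC library 4. Nppa, atrial natriuretic peptide, was at 3574, 409, 4542, 4078 and 981 CPM in TAC libraries 1 to 5. With sildenafil it was at 1004, 544, 1192, 3748 and 1020 CPM. TAC library 2 was the lowest of all and TAC library 5 lay among the sildenafil libraries, while sildenafil library 4 lay among the high TAC libraries. The log2 difference was -0.86 with an interval from -2.37 to 0.65. Leaving out 1 library moved it between -1.53 (without sildenafil library 4) and -0.59. Nppb, brain natriuretic peptide, averaged 757 ± 279.7 CPM with sildenafil and 760.3 ± 359 in TAC (-0.01, -0.78 to 0.77). Furin, a protease that cleaves pro-peptides, was at 0.14 (-0.05 to 0.34) and Mme, the neprilysin that degrades the peptides, at 0.45 (-0.26 to 1.16).

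Among receptors, cyclases and nitric oxide synthases 8 of 9 tested genes were above 0, with a median of 0.10 [0.08 to 0.13]. Npr1, the receptor for both peptides, averaged 19.3 ± 2.66 CPM with sildenafil and 17.7 ± 1.89 in TAC (0.12, -0.10 to 0.35). The C-type peptide receptor Npr2 was at 0.10 (-0.04 to 0.24) and the clearance receptor Npr3 at 0.25 (-0.28 to 0.77). The cyclase subunits stood at 0.09 for Gucy1a3 (-0.47 to 0.66) and -0.03 for Gucy1b3 (-0.30 to 0.24). Endothelial nitric oxide synthase, Nos3, was at 0.05 (-0.20 to 0.29) and inducible Nos2 at 0.24 (-0.07 to 0.55). Neuronal Nos1, with 2 to 14 reads a library in TAC and 7 to 25 with sildenafil, was at 0.95 with an interval from -0.37 to 2.27.

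The drug's target, Pde5a, was at 12.1, 9.21, 10.1, 12.7 and 9.23 CPM in TAC and at 11.5, 10.9, 9.92, 12.3 and 11.5 CPM with sildenafil. The sildenafil libraries lay inside the TAC range. The log2 difference was 0.07 (-0.15 to 0.30). Pde9a, the target of the other inhibitor, was at -0.09 (-0.64 to 0.46). Pde2a was at 0.10 (-0.12 to 0.31), Pde3a at 0.10 (-0.19 to 0.39) and Pde11a at -0.55 (-1.23 to 0.14). Pde1c, a calcium-calmodulin-stimulated phosphodiesterase, was the one of 11 with an unadjusted p under 0.05. It was at 159, 144, 151, 146 and 104 CPM in TAC and at 108, 86.7, 91.3, 145 and 95.3 CPM with sildenafil. TAC library 5 and sildenafil library 4 each sat within the other group, and the remaining libraries were apart (log2 -0.42, -0.73 to -0.12, unadjusted p = 0.00909, adjusted p = 0.947).

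Downstream, 9 of 21 kinase and substrate genes were above 0, with a median of -0.02 [-0.04 to -0.00]. Prkg1, cyclic GMP-dependent protein kinase, averaged 40.9 ± 5.31 CPM with sildenafil and 42.4 ± 3.31 in TAC (-0.06, -0.22 to 0.11). Prkg1 rose against sham in both TAC (0.35, adjusted p = 0.00655) and sildenafil (0.29, adjusted p = 0.0227). Rgs2, a kinase substrate that damps Gq signalling, averaged 17 ± 4.89 CPM with sildenafil and 14.8 ± 5.62 in TAC (0.21, -0.36 to 0.78). Sham hearts averaged 42.7 CPM, and Rgs2 fell against sham in both groups (adjusted p = 0.00262 and 0.00798). The calcium channel Trpc6 was at -0.45 (-1.36 to 0.46) and Rcan1, a calcineurin target gene, at 0.26 (-0.58 to 1.10). Abcc4, which exports cyclic nucleotides, was the one member with an unadjusted p under 0.05 (0.23, 0.07 to 0.39, adjusted p = 0.947). In the list of calcineurin, NFAT and MEF2 genes 11 of 18 were above 0 with a median of 0.01 [0.00 to 0.05].

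**Figure D2:**
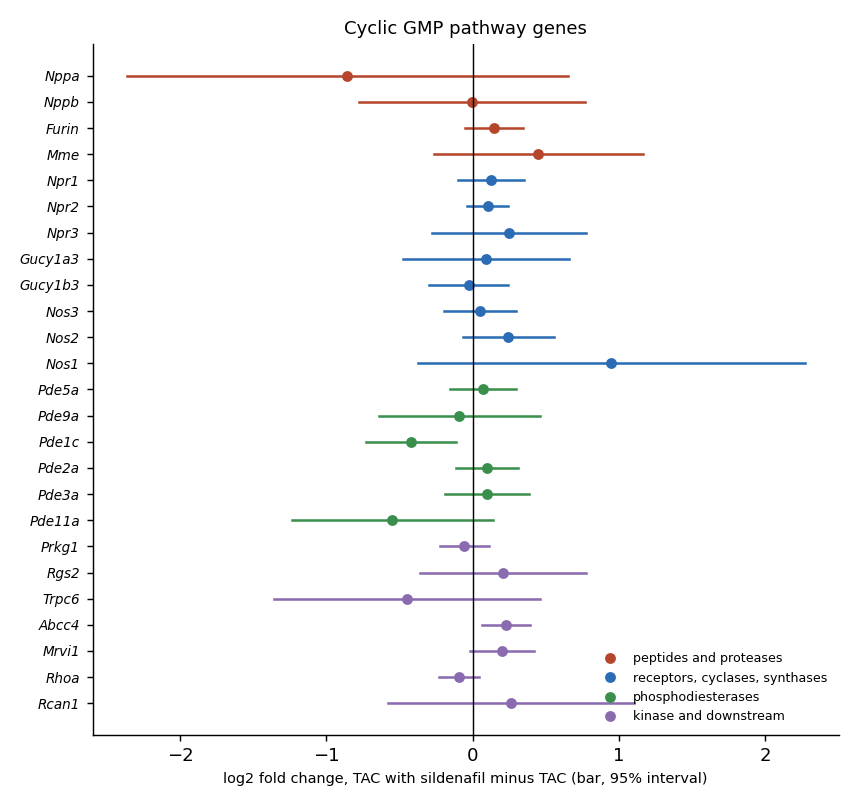
Log2 fold change of 25 genes of cyclic GMP signalling in TAC with sildenafil against TAC (5 against 5 libraries), with 95% intervals that are not adjusted for the number of genes; colours give the role. The intervals of Pde5a (-0.15 to 0.30) and Prkg1 (-0.22 to 0.11) are narrow and include 0, and those of Nppa (-2.37 to 0.65) and Nos1 (-0.37 to 2.27) are wide.

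The load response differed widely between animals of the same group. Beta myosin heavy chain (Myh7) made up 18.8, 6.78, 26.9, 31.4 and 9.89% of Myh6 and Myh7 together in TAC libraries 1 to 5. With sildenafil it made up 1.05, 1.34, 10.4, 20.9 and 17.7%, and in sham 0.541% on average. Sildenafil libraries 1 and 2 lay under every TAC library, while libraries 3 to 5 lay within the TAC range. The difference of means was -8.48 percentage points (10.3 ± 9.11 against 18.7 ± 10.6, SD, n = 5 each; two-sided exact permutation p = 0.222, adjusted over 3 shares 0.333). The smallest p of 5 against 5 libraries is 0.00794. The myosin genes are close paralogs, and the counting could split reads between them.

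Skeletal actin (Acta1) made up 27.9 ± 13.1% of Acta1 and Actc1 with sildenafil and 24.1 ± 8.12% in TAC (n = 5 each, two-sided exact permutation p = 0.611, adjusted 0.611). This difference changed sign without sildenafil library 3 (-0.313 percentage points). The share of Tnni1, slow troponin I, in Tnni1 and Tnni3 was 0.00461% with sildenafil and 0.00936% in TAC (exact permutation p = 0.198, adjusted 0.333). Of the fetal and hypertrophic programme 4 of 14 genes were above 0 with a median of -0.25 [-0.34 to 0.00], and 7 of 14 without TAC library 4. In the same list 11 genes rose in TAC and 10 in sildenafil against sham, beside 1718 and 963 of all 14135 genes.

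Calcium handling and channel genes had a median of 0.04 [-0.00 to 0.11] with 20 of 26 above 0, and 11 of 26 without TAC library 4. Atp2a2, the sarcoplasmic reticulum calcium pump, was at 10346, 14295, 9432, 6995 and 13174 CPM in TAC and at 14560, 13576, 12693, 10571 and 13520 CPM with sildenafil. The 3 lowest libraries were TAC, but TAC libraries 2 and 5 lay within the sildenafil range (log2 0.26, -0.11 to 0.63). Kcna5, the potassium channel Kv1.5, was at 20.1, 16.5, 11.8, 18.6 and 15 CPM in TAC and at 21.1, 26, 22.5, 39.2 and 23.1 CPM with sildenafil. The groups did not overlap, and sildenafil library 4 stood apart at the top (log2 0.69, 0.22 to 1.15, adjusted p = 0.947). Among sarcomere genes 9 of 19 were above 0. Myom2, an M-band protein, averaged 1708 ± 357 CPM with sildenafil and 2323 ± 360.0 in TAC (-0.44, -0.73 to -0.15, adjusted p = 0.93). Cardiomyocyte markers had 9 of 13 above 0, and 4 of 13 without TAC library 4.

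Matrix genes had values below 0 in most members, by less than the spread between animals. Of the list 5 of 41 were above 0, the median was -0.27 [-0.45 to -0.07], and edgeR called 0 (1 lower at an unadjusted p under 0.05). Postn, periostin, was at 952, 279, 2187, 2812 and 497 CPM in TAC and at 457, 253, 764, 1643 and 720.0 CPM with sildenafil. TAC libraries 3 and 4 were the highest and the rest were interleaved (log2 -0.81, -2.16 to 0.54). Without TAC library 4 the Postn value was -0.35 and 15 of 41 matrix genes were above 0, and 2 of 41 were without TAC library 2. Spp1, osteopontin, was at 4.26, 1.57, 10.7, 17 and 5.04 CPM in TAC and at 2.94, 1.67, 2.12, 3.74 and 4.16 CPM with sildenafil. Its TAC library 2 lay below the whole sildenafil group and the other TAC libraries above it (log2 -1.40, -2.62 to -0.18, adjusted p = 0.947). The fibrillar collagens Col1a1 (-0.27, -1.40 to 0.86) and Col3a1 (-0.32, -1.30 to 0.66) had wide intervals. Without TAC library 4, Col1a1 was at 0.07, Col3a1 at -0.02 and Spp1 at -0.89. Of the TGF-beta genes 5 of 23 were above 0 with a median of -0.11 [-0.22 to -0.04], 1 of 23 without sildenafil library 4 and 8 of 23 without sildenafil library 3.

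Markers of activated fibroblasts lay below 0 with the matrix genes, and the lists share members such as Postn. Of these, 11 of 11 were below 0 (median -0.51 [-0.76 to -0.23]). Their summed level was 944 to 5845 CPM in TAC and 695 to 3525 CPM with sildenafil, and none of the 11 was at 0. Cthrc1, a secreted protein of matrix-producing fibroblasts, was at 2.85, 1.03, 6.61, 10.2 and 2.26 CPM in TAC and at 1.37, 0.807, 0.876, 2.11 and 2.3 CPM with sildenafil. TAC libraries 3 and 4 stood well above the rest, and TAC libraries 2 and 5 lay inside the sildenafil range (log2 -1.62, -3.09 to -0.15, adjusted p = 0.947; -1.10 without TAC library 4). The part of these cells in the matrix values was not tested. Markers of fibroblasts in general had 5 of 13 above 0.

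**Figure D3:**
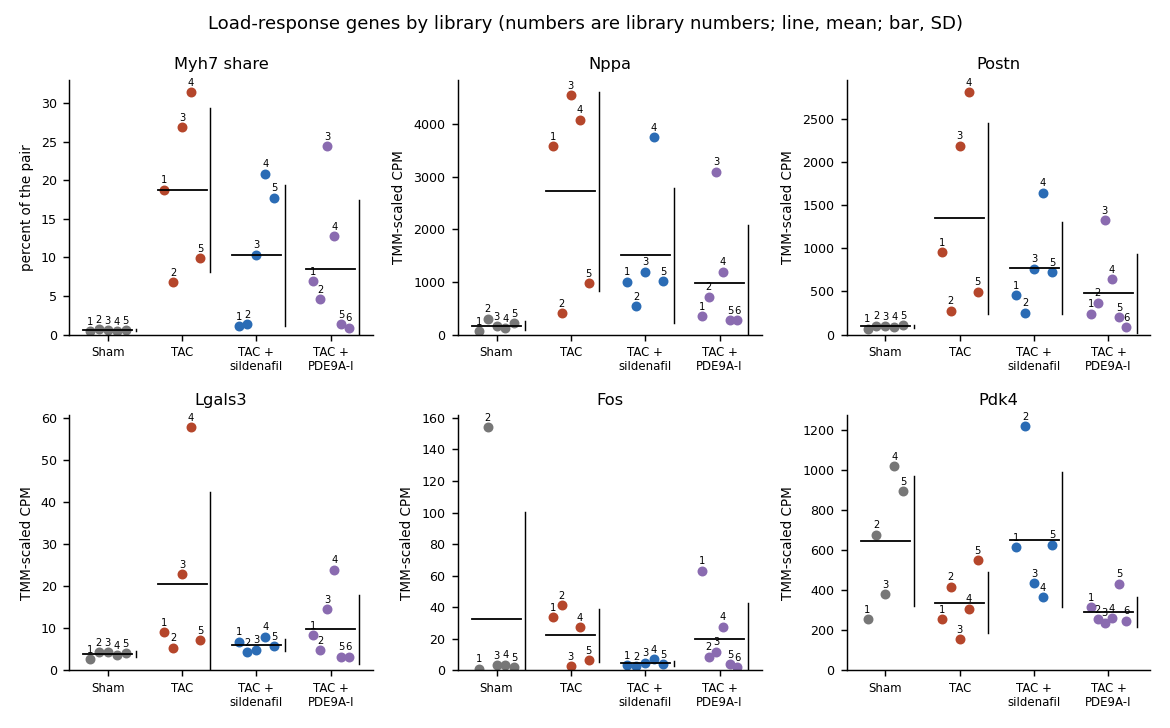
Myh7 as a percentage of Myh6 and Myh7 together, and levels of 5 genes in TMM-scaled CPM, by library in the 4 groups. Points are animals with their numbers, lines are means and bars SDs; TAC libraries 3 and 4 are the highest TAC libraries for Myh7 share, Nppa, Postn and Lgals3, and sildenafil library 4 is the highest of its group for the same genes.

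Inflammatory genes lay below 0 in 26 of 33 tested members, with a median of -0.22 [-0.28 to -0.07]. EdgeR called 0, and 4 were lower at an unadjusted p under 0.05. Lgals3, galectin-3 of activated macrophages, was at 9, 5.34, 22.9, 57.7 and 7.07 CPM in TAC. With sildenafil it was at 6.73, 4.25, 4.89, 7.94 and 5.73 CPM. TAC libraries 3 and 4 stood apart, and TAC libraries 2 and 5 lay inside the sildenafil range (log2 -1.79, -3.03 to -0.55, adjusted p = 0.947). Leaving out 1 library moved the Lgals3 value between -2.03 to -0.91. Without TAC library 4 the inflammatory genes above 0 were 15 of 33. Selp, the P-selectin of activated endothelium and platelets, was at -1.49 (-2.52 to -0.46) and the alarmin Il33 at -0.63 (-1.17 to -0.09), both with an adjusted p of 0.947. Selp had few reads, 4 to 49 a library in TAC and 6 to 16 with sildenafil. Its TAC library 2 (0.18 CPM) lay inside the sildenafil range of 0.17 to 0.43 CPM. Macrophage markers had median sums of 479 CPM in TAC and 470.0 with sildenafil, with 4 of 11 above 0. Interferon-stimulated genes had 7 of 25 above 0 with a median of -0.09 [-0.13 to 0.01], and 13 of 25 without TAC library 4.

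Immediate early genes, which are induced within minutes of a stimulus, had 4 of 24 above 0 and a median of -0.41 [-0.56 to -0.10]. Without TAC library 4 the count was 9 of 24, and 2 of 24 without sildenafil library 5. Fos was at 33.5, 41.1, 2.38, 27.1 and 6.15 CPM in TAC and at 3.27, 2.6, 4.6, 6.99 and 3.93 CPM with sildenafil. TAC libraries 1, 2 and 4 were far above the other 7, and sham libraries ranged over 0.945 to 154 CPM (log2 -2.36, -4.90 to 0.19). Junb, its partner in the AP-1 factor, was at -1.08 (-2.46 to 0.30). When the leading digit of the ear tag entered the model, Fos was at -1.05 and Junb at -0.46, and without the TAC libraries with tags in the 100s Fos was at -1.47.

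Genes of fuel oxidation had small differences above 0 in most members, with medians that moved with single libraries. Of the genes of fatty acid uptake and oxidation 33 of 34 were above 0, with a median of 0.15 [0.05 to 0.28]. EdgeR called 0 of them (2 higher at an unadjusted p under 0.05), and 29 of 34 were above 0 without TAC library 4. Pdk4, the kinase that shuts off pyruvate dehydrogenase, was at 254, 418, 153, 308 and 549.7 CPM in TAC and at 615, 1222, 436, 365 and 627 CPM with sildenafil. TAC libraries 2 and 5 lay within the sildenafil range (log2 0.96, 0.16 to 1.75, adjusted p = 0.947). Fabp4, a fatty acid-binding protein of capillary endothelium, was at 288, 283, 245, 296 and 339.6 CPM in TAC and at 406, 378, 319, 333 and 362 CPM with sildenafil. TAC library 5 alone lay inside the sildenafil range (0.31, 0.09 to 0.52, adjusted p = 0.947). The fatty acid transporter Cd36 was at 0.12 (-0.11 to 0.36).

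Of the PGC-1, PPAR and ERR regulators of mitochondrial genes 17 of 19 were above 0 (median 0.11 [0.06 to 0.19], 2 at an unadjusted p under 0.05). Ppargc1b, the coactivator PGC-1 beta, was at 24.5, 25.7, 24, 22.9 and 26.3 CPM in TAC and at 33, 34.5, 27.4, 29.1 and 35.5 CPM with sildenafil. The groups did not overlap and the TAC libraries were close together (log2 0.37, 0.17 to 0.57, unadjusted p = 0.00093, adjusted p = 0.785). Its paralog Ppargc1a was at 0.08 (-0.26 to 0.42). The orphan receptor Esrrb, at 29.3 to 33.8 CPM in TAC and 34.8 to 40.4 with sildenafil, also had no overlap (0.23, -0.02 to 0.48). In oxidative phosphorylation 32 of 39 nuclear genes were above 0 (median 0.06 [-0.00 to 0.13]), but 19 of 39 without TAC library 4. In the tricarboxylic acid cycle 17 of 18 were (median 0.09 [0.02 to 0.17]). Glycolytic genes were divided, 11 of 21 above 0, with hexokinase Hk1 at -0.36 (-0.62 to -0.09, adjusted p = 0.947).

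**Figure D4:**
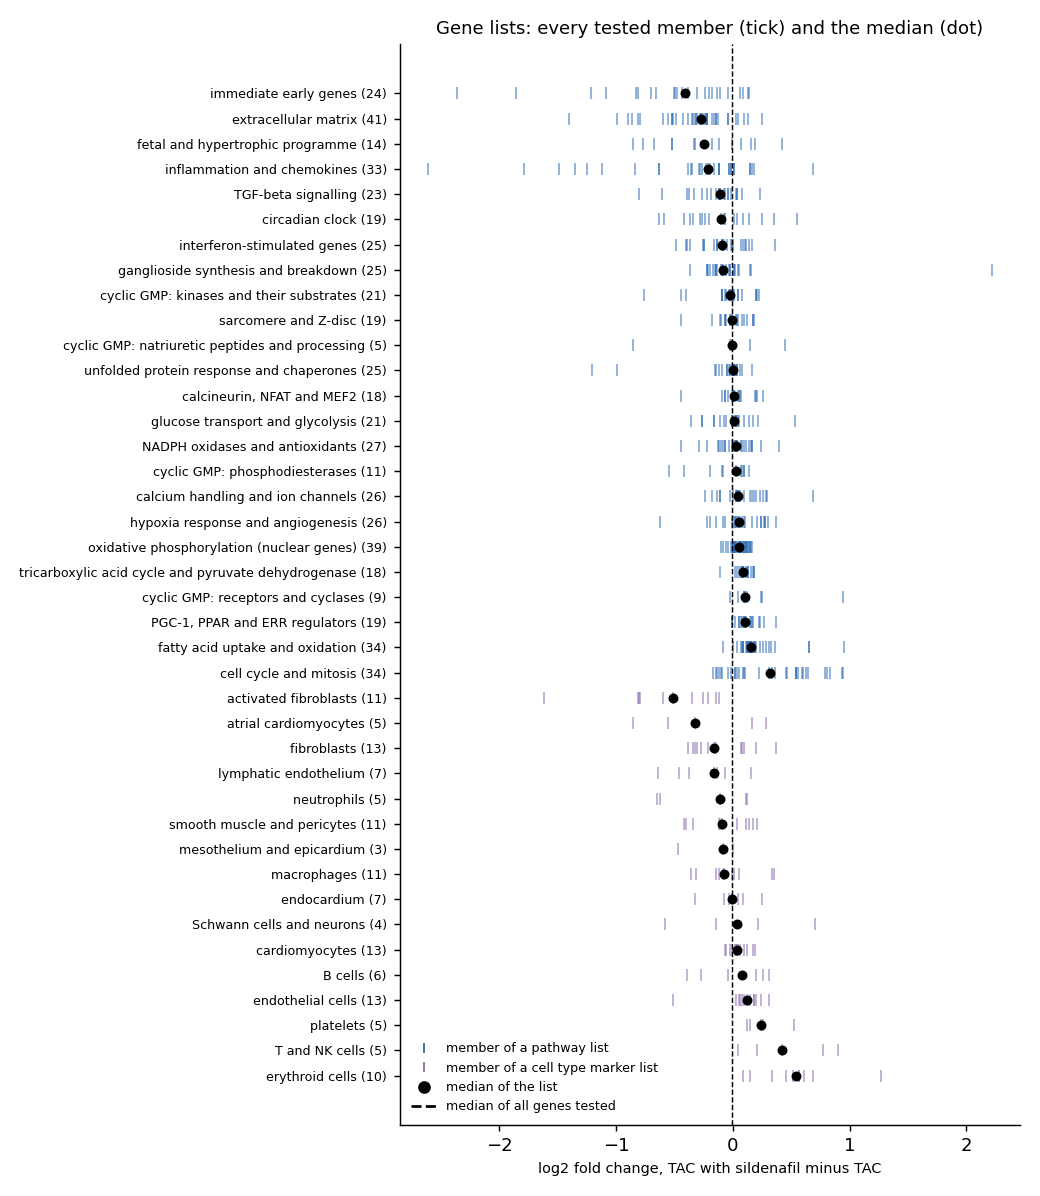
Log2 fold change in TAC with sildenafil against TAC for every tested member (ticks) of each gene list with 3 or more tested members. Dots are list medians and the dashed line the median of all 14135 genes; activated fibroblast markers (-0.51) and immediate early genes (-0.41) have the lowest medians with all libraries in the model and erythroid markers (0.54) the highest.

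Markers of blood and vessel cells were taken by cell type. Of the erythroid markers 10 of 10 were above 0 (median 0.54 [0.40 to 0.67]). Their sum was 461 to 799.9 CPM in TAC and 792 to 1062 with sildenafil, so that only the extremes overlapped, and 553 to 1529 CPM in sham. Hba-a1, alpha globin, averaged 406 ± 76.9 CPM with sildenafil and 252 ± 100.1 in TAC (0.69, -0.07 to 1.45). It has a near-identical copy, Hba-a2, and the split of reads between them is uncertain. Hbb-bt, a beta globin with its own close copy, Hbb-bs, was at 0.56 (-0.10 to 1.22). Platelet markers had 5 of 5 above 0, and T and NK cell markers 5 of 5 at sums of 1.83 to 3.01 CPM in TAC and 2.36 to 3.96 CPM with sildenafil. Neutrophil markers had 2 of 5 (median -0.11 [-0.40 to 0.10]) above 0 and B cell markers 3 of 6 (median 0.08 [-0.11 to 0.17]).

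Endothelial markers had 12 of 13 above 0 with a median of 0.12 [0.08 to 0.19] and 3 at an unadjusted p under 0.05. The 1 member below 0 was at -0.51, further from 0 than any of the 12 above it (highest 0.31). Their sum was 1301 to 1600 CPM in TAC and 1522 to 1736 with sildenafil, and none of the 13 was at 0. Markers of lymphatic endothelium had 1 of 7 (median -0.16 [-0.41 to -0.02]) above 0 and those of endocardium 3 of 7 (median -0.01 [-0.11 to 0.08]). Robo4, a receptor of quiescent endothelium, was at 0.20 (0.06 to 0.35) and the VEGF receptor Kdr at 0.24 (0.01 to 0.47). Vegfa, the ligand of Kdr, averaged 278 ± 34.9 CPM with sildenafil and 230.4 ± 36.1 in TAC (0.27, 0.06 to 0.48). The part of endothelial or blood content in the values of Btnl9, Gpihbp1, Fabp4 and the fatty acid list was not tested.

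Cell cycle genes had 26 of 34 above 0 and a median of 0.32 [0.20 to 0.52]. Their summed level overlapped, at 446 to 672 CPM in TAC (median 626) and 536 to 681 CPM with sildenafil (median 584). Cdc20, an activator of the anaphase-promoting complex, was at 2.16, 0.898, 1.22, 1.74 and 1.08 CPM in TAC and at 1.95, 3.02, 3.94, 2.76 and 2.11 CPM with sildenafil. TAC library 1 lay above sildenafil libraries 1 and 5, and the other TAC libraries lay below all 5 (log2 0.94, 0.37 to 1.51, adjusted p = 0.851). Ccnb2, cyclin B2, was at 0.93 (0.03 to 1.84). Among clock genes 7 of 19 were above 0, with the repressors Bhlhe41 at -0.34 (-0.61 to -0.07) and Bhlhe40 at -0.42 (-0.82 to -0.02). NADPH oxidase and antioxidant genes had 16 of 27 above 0 (median 0.02 [0.00 to 0.04]) and the unfolded protein response 10 of 25 (median -0.00 [-0.04 to 0.00]). Genes of hypoxia and angiogenesis had 19 of 26 above 0 (median 0.06 [0.04 to 0.09]), and 14 of 26 without TAC library 5.

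Sildenafil was last compared with the PDE9A inhibitor under the same overload, with the dose of neither known here. At an unadjusted p under 0.05 in edgeR 1472 of 14135 genes differed, where 5% of the tests is 706.75. Of all genes 1 was called (0.00707%): Cd79b, a signalling chain of the B cell receptor, which was higher with sildenafil (1.6 ± 0.288 CPM against 0.596 ± 0.121, SD over 5 and 6 animals; log2 1.41, 1.01 to 1.81, edgeR adjusted p = 0.00591). Against TAC, Cd79b with sildenafil was at 0.26 (-0.14 to 0.65). Its partner Cd79a was at 1.34 against the PDE9A inhibitor (adjusted p = 0.0866). B cell markers summed to 4.56 to 7.44 CPM with sildenafil, 4.4 to 7.11 in TAC and 1.47 to 2.95 with the PDE9A inhibitor, and the part of B cell content was not tested. For Nppa the difference between the drugs was 0.61 (-0.82 to 2.04) and for Postn 0.69 (-0.60 to 1.97). For the Myh7 transcript it was 0.07 (-1.42 to 1.56) and for Ppargc1b -0.08 (-0.27 to 0.11). Intervals that left out 0 were seen for Rcan1 (1.39, 0.58 to 2.19), Nppb (0.81, 0.07 to 1.54) and Pde3a (-0.31, -0.58 to -0.03). None of these genes was called. Against TAC, the list medians with the PDE9A inhibitor were -0.76 for activated fibroblast markers, -0.45 for matrix genes and 0.19 for fatty acid genes. They were 0.57 for erythroid markers and 0.23 for immediate early genes, the last opposite in sign to sildenafil. Both drugs are set against the same TAC libraries, so directions that they share are not independent.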

How the data were processed

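Stranded total RNA libraries were made from left ventricle, per the labels' protocols. The authors deposited RSEM expected counts for 24054 gene symbols, and 27 symbols replaced by dates were not named. The submitters' processing notes list CASAVA 1.8.4, HISAT2 2.0.5, RSEM 1.3.0 with mm10, and DESeq2 1.18.1.

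Here the expected counts were rounded, filtered with filterByExpr by group (14135 genes kept) and scaled by TMM. EdgeR 4.0.16 in R 4.3.3 fitted a quasi-likelihood model with group means over 21 libraries, so that 4 groups share 1 estimate of the spread. Benjamini-Hochberg adjustment ran over all genes, and "rose" and "fell" mean an adjusted p under 0.05. Intervals are 95%, unadjusted. The fit was tested on simulated data, drawn independently for each gene and library. Such data lack deviations shared by the genes of an animal, so the test does not cover those. Alternatives included DESeq2 1.42.0 and limma 3.58.1.

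Named genes were those called, the 10 of lowest p per direction at 1 CPM or more, a set of pathway and load genes, and the 3 members of lowest p of each of 24 pathway lists (2 for 18 marker lists). Members and lists were chosen with earlier results of these data known. Some genes the rule gives are left out here. Coordinates come from GENCODE M21, in which 139 of 142 named genes matched exactly 1 gene. A RefSeq promoter was found for 107.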

Additional observations from a re-analysis of the deposited data

Results flagged for a closer look

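In groups of 5 libraries, a value was taken as standing apart where its gap to the nearest library was large against the group's range (Dixon's test). Among 290 groups examined 18 did so, beside about 14.5 given by chance at 1 in 20. In TAC these were library 1 for Cd79a (0.893 CPM), library 2 for Nos1 (0.629), S100a9 (3.73) and S100a8 (1.75), library 3 for Camk2g (72.9), library 4 for Furin (76.7), Ier3 (61.5), Isg15 (5.19) and Fcgr1 (6.57), and library 5 for Pde1c (104). With sildenafil they were library 2 for Cd79a (0.339), library 3 for Camk2g (52.2) and S100a8 (1.02), library 4 for Nppa (3748), Kcna5 (39.2) and B4galt5 (28.6), and library 5 for Pde11a (4.92) and Cd79b (2.11). A difference between the drugs passed its own test for Cd79b, with a log2 fold change of 1.41 for sildenafil against the PDE9A inhibitor.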

How the results depend on the processing

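The number of genes higher with sildenafil was 2 with relative log expression scaling, with no low-count filter and with a filter of 1 CPM in 5 libraries. It was 6 with DESeq2 (2 lower), 0 with limma-voom with sample weights, 0 in the 10 libraries alone, 1 when the leading digit of the ear tag entered the model and 0 without the TAC libraries with ear tags in the 100s. Leaving out 1 library gave 0 to 2 higher and 0 lower. With the replicate block 1 gene was higher and the St8sia1 call was lost (adjusted p = 0.162). Replicate numbers here are only names: the deviations of same-numbered TAC and sildenafil libraries correlated at -0.16, 0.31, 0.04, 0.56 and -0.02, and only sildenafil library 4 correlated best with its own number. The cause of the differences between settings was not tested. Of the 142 named genes, 131 kept the sign of their fold change in every alternative run; the others were Col1a1, Gucy1a3, Gucy1b3, Krt8, Myh6, Nos3, Nppb, Pde9a, Ppargc1a, Prkg1 and Rcan1, none of them called. Over the leave-one-out settings the percent Myh7 of Myh6 and Myh7 differed by -11.5 to -5.32 points and the percent Acta1 of Acta1 and Actc1 by -0.313 to 7.61. Counts of list members above 0 without single libraries were chosen after seeing the data.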
